A study of Mus musculus with 45 samples.

Results

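In all, 10 genes of glucose uptake and glycolysis were followed through the 45 mouse libraries of the study: the glucose transporter Slc2a1, the enzymes Hk2, Pfkfb3, Pfkp, Aldoa, Pgk1, Eno1, Pkm and Ldha, and the transcription factor Hif1a. They were chosen by name, with earlier results of these data known. All 10 of the 10 were found among the 56039 gene identifiers of the 3 deposited tables. All 10 passed the filter on low counts in slice microglia (11313 genes tested) and in adult microglia (12987 genes tested), and 9 passed it in brain tissue (15083 genes tested). The gene left out there was Pfkfb3, which was listed at 0 in all 8 brain libraries.

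All animals were C57BL/6 mice with no genetic modification named. Microglia, the resident macrophages of the brain, were sorted as cells high in CD11b and intermediate in CD45, either from organotypic brain slices (slices of neonatal brain kept alive on a membrane, here for 2 weeks, several of them pooled per sample) or from adult mice 10 to 15 weeks of age. During the last 24 h the slices received TNF at 50 ng/mL (11 samples), GM-CSF at 20 ng/mL (9 samples) or no cytokine (medium, 9 samples). Adult mice received PBS (4 samples) or lipopolysaccharide (LPS) at 1 mg/kg for 24 h (4 samples), and whole brain tissue came from untreated mice (4 samples) or from mice given LPS at 1 mg/kg for 24 h (4 samples). The brain controls were therefore not injected. TNF and GM-CSF are cytokines, and LPS is a bacterial cell wall component that acts on innate immune cells. A slice keeps neurons, astrocytes and other cells beside the microglia, so the cytokines reached all of them.

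Glycolysis turns glucose into pyruvate in the cytosol. Slc2a1 encodes GLUT1, which carries glucose across the membrane. Hk2 (hexokinase 2) phosphorylates it, Pfkp is the platelet-type subunit of phosphofructokinase, and Pfkfb3 makes fructose 2,6-bisphosphate, an activator of phosphofructokinase. Aldoa, Pgk1, Eno1 and Pkm encode aldolase A, phosphoglycerate kinase 1, enolase 1 and pyruvate kinase M. Ldha encodes the lactate dehydrogenase subunit that favours lactate formation. Hif1a encodes the oxygen-regulated subunit of HIF-1, a transcription factor that binds a short DNA core at many glycolytic genes, and is itself governed mainly through protein stability, which RNA does not show. Activated macrophages and microglia are known for a shift towards glycolysis.

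The slice libraries held between 5973364 and 9165485 counts, the adult libraries between 11391564 and 14216005, and those of brain tissue between 8199863 and 10368578. Levels are given as CPM, counts relative to library size, scaled by the trimmed mean of M-values (TMM), and changes as log2 fold changes ± SE. A gene passed the test where the Benjamini-Hochberg adjusted p of edgeR's quasi-likelihood test was under 0.05 and the fold was over 1.5 (0.58 on the log2 scale). The defining markers matched the labels: 8 microglia markers summed to 9228 to 23869 CPM in the slice libraries, 38118 to 59080 CPM in the adult ones and 252 to 420 CPM in whole tissue, whereas 6 neuron markers summed to at most 11.2 CPM in sorted cells and to 5605 to 6215 CPM in brain tissue. In slices the summed microglia markers were lower with TNF (median 10768 CPM) and with GM-CSF (12782 CPM) than in medium (21152 CPM). Summed astrocyte markers were 51.1 to 99.1 CPM in medium, 18.9 to 72.3 CPM with TNF and 30.3 to 62.6 CPM with GM-CSF. Oligodendrocyte markers summed to 139 to 220 CPM, 150 to 299 CPM and 109 to 174 CPM in the same order. Of 5 astrocyte markers tested, 1 passed as lower with each cytokine. Of 4 oligodendrocyte markers tested, 1 passed as higher with TNF and 0 with GM-CSF in edgeR. Summed monocyte and neutrophil markers had medians of 3.64 CPM in medium, 9.84 CPM with TNF and 10.1 CPM with GM-CSF. Of the 3 that were tested, 2 passed as higher with TNF and 0 with GM-CSF in edgeR. In the same order the means were 2.53, 11.7 and 8.55 CPM for S100a8 and 0.861, 4.58 and 5.21 CPM for S100a9. They were 0.627, 3.50 and 2.68 CPM for Mmp8. Ccr2 went the other way, at 1.11, 0.245 and 0.902 CPM. Ly6c2, Plac8 and Ngp had means of at most 1.09 CPM. The part of these other cell types in the results was not tested. The highest sum of monocyte and neutrophil markers was 119 CPM, in TNF replicate 6. Without that library the same numbers of the 10 genes passed the test, 6 for TNF against medium and 7 for TNF against GM-CSF.

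**Figure D1:**
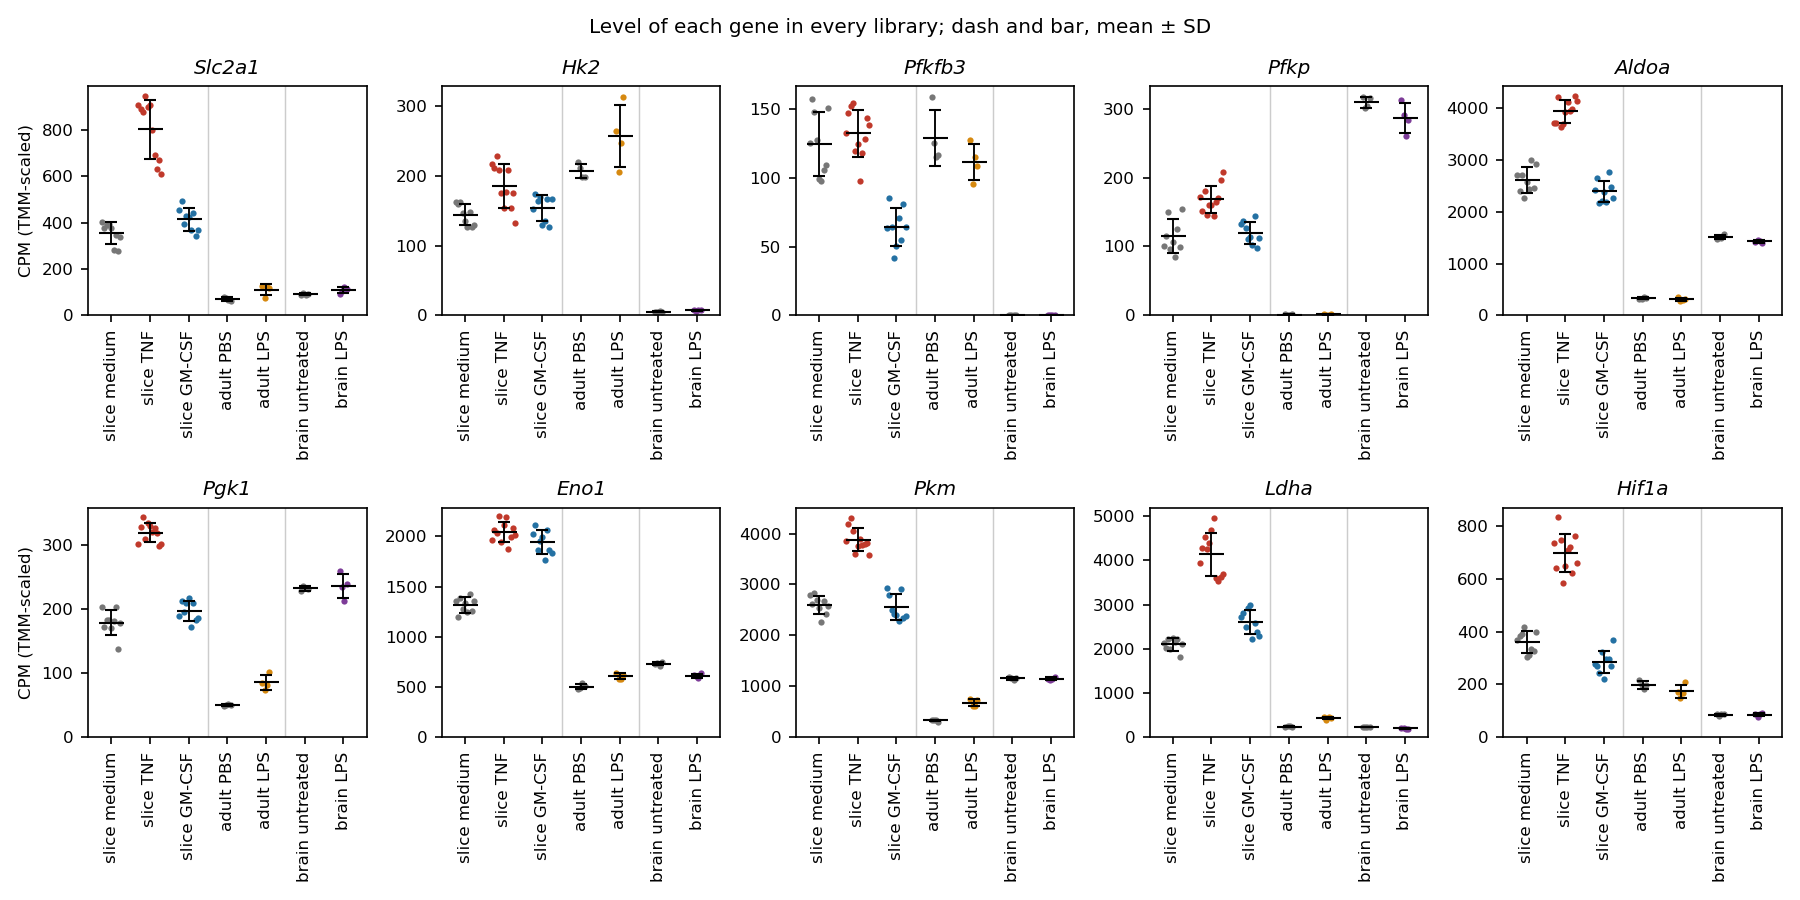
TMM-scaled CPM (vertical axes, linear, from 0, a scale per gene) of each of the 10 genes in every library of the 7 groups (horizontal axes); points are libraries, the dash and bar the mean ± SD. The 11 TNF samples lie above all 9 medium samples for Slc2a1, Aldoa, Pgk1, Eno1, Pkm, Ldha and Hif1a, and Pfkfb3 is lowest among the slice groups with GM-CSF.

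Slc2a1, Pgk1 and Ldha were the genes that passed the test both with TNF in slice microglia and with LPS in adult microglia. Their DNA upstream of the RefSeq transcription start (GRCm38.p6) is shown with each 5-base HIF core, ACGTG or GCGTG on either strand, in capitals, and annotated exons are left out. The stretches lie at chr4:119108495-119108710 for Slc2a1, chrX:106186850-106187099 for Pgk1 and chr7:46845554-46845803 for Ldha, all on the plus strand. That of Ldha lies inside the annotated span of the gene, which has an earlier start as well.
Slc2a1: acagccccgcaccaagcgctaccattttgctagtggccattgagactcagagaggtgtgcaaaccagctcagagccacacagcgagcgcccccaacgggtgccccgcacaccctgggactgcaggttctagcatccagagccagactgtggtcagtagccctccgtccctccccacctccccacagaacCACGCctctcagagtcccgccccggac
Pgk1: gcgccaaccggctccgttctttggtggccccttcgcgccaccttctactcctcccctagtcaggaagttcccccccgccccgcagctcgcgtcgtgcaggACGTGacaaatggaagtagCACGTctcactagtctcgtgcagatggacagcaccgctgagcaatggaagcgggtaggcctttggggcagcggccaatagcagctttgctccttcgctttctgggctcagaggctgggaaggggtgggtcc
Ldha: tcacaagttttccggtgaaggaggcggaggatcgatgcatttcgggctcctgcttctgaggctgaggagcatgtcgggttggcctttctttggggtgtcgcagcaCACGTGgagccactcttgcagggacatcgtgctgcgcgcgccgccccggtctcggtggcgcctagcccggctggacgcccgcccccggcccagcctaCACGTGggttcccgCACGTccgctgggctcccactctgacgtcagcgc

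The Ldha stretch held 5 matches, 4 of them from 2 copies of CACGTG, a palindrome that is read on both strands and is also the E-box of other factors. The Pgk1 stretch held 2 matches and the Slc2a1 stretch 1. Over the full window of 300 bases (250 before and 50 after the first listed start), 8 of the 10 genes held a match, and Aldoa and Pkm held none there, although other listed starts of both genes did. Of all 32851 promoter windows of that length, 43.8% held a match, so the letters are common, and a match is not evidence of binding.

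TNF raised 6 of the 10 genes in slice microglia and lowered none: Slc2a1, Aldoa, Pgk1, Eno1, Ldha and Hif1a. Of all genes tested 9.10% passed in that direction and 20.8% in either. The median log2 fold change of the 10 genes was 0.61, against -0.03 over all genes tested. For 7 of the 10 every TNF sample lay above every medium sample, a pattern that 6.25% of all genes showed. As the 10 genes were chosen with earlier results of these data known, these shares are not a test of the set. In bulk RNA from sorted cells, a change in the mix of cells and a change in RNA per cell cannot be told apart.

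Slc2a1 (ENSMUSG00000028645, chr4:119108711-119137983) moved most. It ranged from 278 to 405 CPM (median 376) in medium and from 608 to 945 CPM (median 876) with TNF, with no overlap. The log2 fold change was 1.18 ± 0.09 (2.27-fold, adjusted p = 3.51e-13). The TNF samples whose titles carry the codes 1A or 1B, a label the sources do not explain, lay at 876 to 945 CPM, and those with 2A or 2B at 608 to 800 CPM. Within these pairs of codes the log2 fold change was 1.22 and 1.07. Summed endothelial markers, a cell type rich in GLUT1, were 7.14 to 20.3 CPM in medium and 12.3 to 38.2 CPM with TNF, with Tek and Slco1a4 at 0 in both groups. The mean was higher with TNF for Kdr (2.12 and 8.70 CPM), Esam (1.36 and 3.52 CPM) and Cdh5 (0.659 and 1.93 CPM). It was lower for Pecam1 (2.56 and 1.84 CPM) and nearly equal for Flt1 (6.25 and 6.17 CPM). Of the 4 endothelial markers tested, 1 passed as higher. Their part in the Slc2a1 result was not tested.

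Ldha (ENSMUSG00000063229, chr7:46841475-46855627) ranged from 1802 to 2239 CPM (median 2122) in medium and from 3542 to 4962 CPM (median 4256) with TNF. Its lowest TNF sample was thus above its highest medium sample, and the log2 fold change was 0.98 ± 0.07 (1.97-fold, adjusted p = 2.23e-14). Hif1a (ENSMUSG00000021109, chr12:73901375-73947530) ranged from 302 to 417 CPM (median 368) in medium and from 584 to 833 CPM (median 709) with TNF, again without overlap. Its log2 fold change was 0.96 ± 0.08 (1.94-fold, adjusted p = 2.85e-12).

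The enzymes Pgk1, Eno1, Aldoa and Pkm followed. Pgk1 (ENSMUSG00000062070, chrX:106187100-106203699) ranged from 137 to 203 CPM (median 181) in medium and from 297 to 343 CPM (median 319) with TNF, at a log2 fold change of 0.84 ± 0.06 (adjusted p = 6.91e-14). Eno1 (ENSMUSG00000063524, chr4:150236721-150248879) ranged from 1193 to 1427 CPM (median 1331) and from 1877 to 2202 CPM (median 2033), at 0.63 ± 0.05 (adjusted p = 8.09e-14). Aldoa (ENSMUSG00000030695, chr7:126795234-126800751) ranged from 2268 to 3005 CPM (median 2566) and from 3639 to 4227 CPM (median 3937), at 0.59 ± 0.06 (adjusted p = 5.33e-11). The groups did not overlap for any of these 3 genes. Aldoa lay just inside the fold limit, and Pkm (ENSMUSG00000032294, chr9:59656368-59679375) just outside it. Pkm ranged from 2257 to 2823 CPM (median 2610) in medium and from 3581 to 4312 CPM (median 3811) with TNF, at a log2 fold change of 0.58 ± 0.05 (1.49-fold, adjusted p = 6.49e-11). Pkm was thus apart from medium in all 11 samples while missing the fold limit.

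Hk2, Pfkp and Pfkfb3 did not pass with TNF. Pfkp (ENSMUSG00000021196, chr13:6579768-6648777) ranged from 84.6 to 155 CPM in medium and from 144 to 208 CPM with TNF, at 0.55 ± 0.10 (adjusted p = 1.65e-05). Hk2 (ENSMUSG00000000628, chr6:82725025-82774454) ranged from 127 to 163 CPM and from 133 to 229 CPM, at 0.36 ± 0.09 (adjusted p = 0.00117). Both were under the fold limit, and for both 8 of the 11 TNF samples lay above every medium sample. Pfkfb3 (ENSMUSG00000026773, chr2:11471433-11554077) had 97.6 to 158 CPM in medium and 98.1 to 155 CPM with TNF. The 95% interval of its log2 fold change, -0.14 to 0.31, leaves out a change of 1.5-fold.

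GM-CSF was compared with the same 9 medium samples as TNF, so the comparisons share their controls. It lowered 1 of the 10 genes, Pfkfb3 (5.96% of all genes passed in that direction), and edgeR passed 0 in the other direction (4.84% of all genes), where DESeq2 also passed 0. Of all genes 10.8% passed in either direction, and on total counts in place of TMM the share of higher calls among them was 64.0% in place of 44.8%. An unadjusted p under 0.05 was found for 7 of the 10, a count given without the share of all genes. Pfkfb3 ranged from 97.6 to 158 CPM (median 126) in medium and from 41.5 to 85.3 CPM (median 64.0) with GM-CSF. All 9 GM-CSF samples lay under all medium samples, as they did for 2.67% of all genes, and the log2 fold change was -0.96 ± 0.12 (1.95-fold lower, adjusted p = 6.66e-08). It was -1.13 in samples coded 1A or 1B and -0.79 in those coded 2A or 2B.

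Eno1 came close to the limit with GM-CSF. It ranged from 1769 to 2117 CPM (median 1952), above all medium samples as for 2.94% of all genes, at a log2 fold change of 0.56 ± 0.05 (1.48-fold, adjusted p = 2.67e-11). Ldha ranged from 2218 to 2985 CPM, at 0.31 ± 0.07 (adjusted p = 0.000687), and 8 of the 9 samples lay above every medium sample. Hif1a ranged from 219 to 368 CPM, at -0.34 ± 0.08 (adjusted p = 0.00180), and 7 of the 9 samples lay below every medium sample. In the samples coded 2A or 2B alone, the adjusted p was 0.117 for Ldha and 0.330 for Hif1a. Slc2a1, at 344 to 494 CPM, had a log2 fold change of 0.22 ± 0.09 (adjusted p = 0.0717). For Hk2, Pfkp, Aldoa, Pgk1 and Pkm the log2 fold changes lay between -0.12 and 0.14, and none of them passed.

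**Figure D2:**
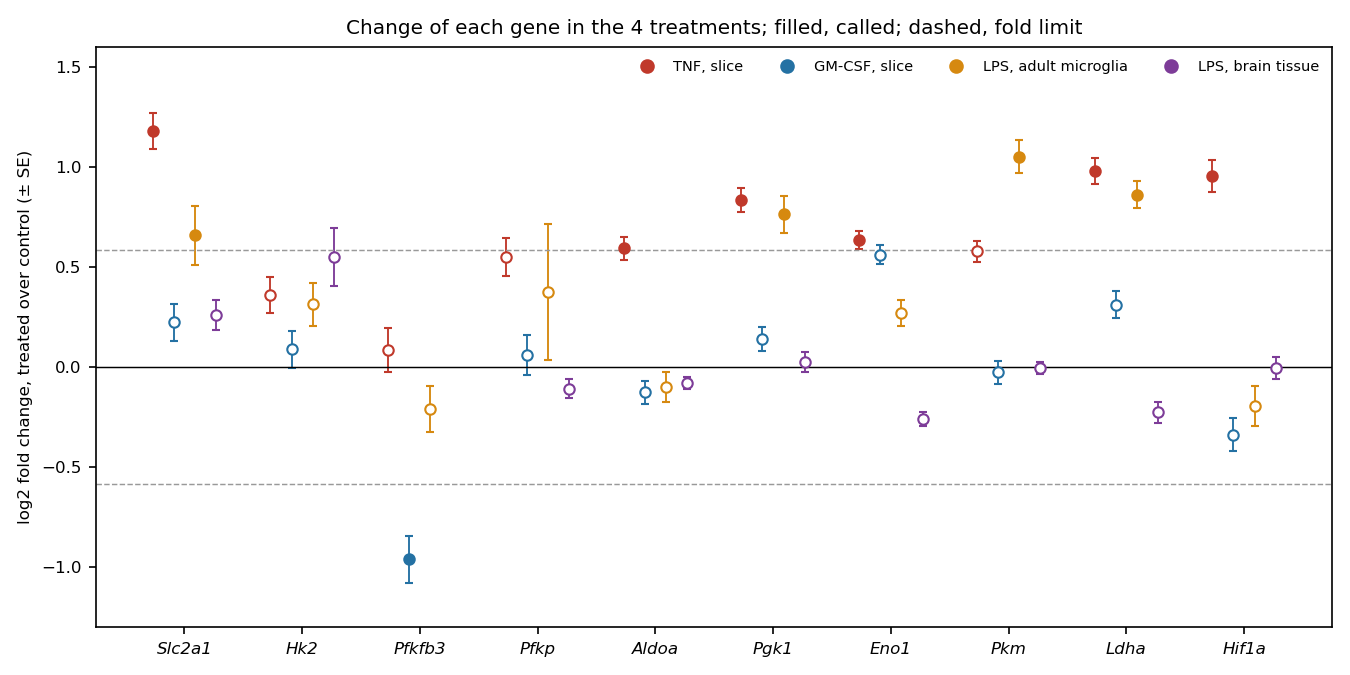
Log2 fold change ± SE (vertical axis) of each gene (horizontal axis) in the 4 treatments, against medium, PBS or untreated controls; filled points passed the test and dashed lines mark the fold limit. Pfkfb3 in brain tissue is not drawn because it was listed at 0. TNF and adult LPS hold the filled points above 0, and GM-CSF the only one below it.

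Set against each other directly, TNF gave higher levels than GM-CSF for 7 of the 10 genes and lower levels for none (8.25% of all genes passed as higher and 16.2% in either direction). Hif1a differed most, at 1.29 ± 0.08 (2.45-fold, adjusted p = 1.80e-15), followed by Pfkfb3 at 1.05 ± 0.11 (2.06-fold, adjusted p = 1.86e-09) and Slc2a1 at 0.96 ± 0.09 (1.94-fold, adjusted p = 6.97e-11). Aldoa (0.72), Pgk1 (0.70), Ldha (0.67) and Pkm (0.60) also passed. For these 7 genes every TNF sample lay above every GM-CSF sample, as did 5.30% of all genes. Hk2 and Pfkp differed by 0.27 and 0.49 and stayed under the fold limit. Eno1 was the gene on which the cytokines did not part, at 0.07 ± 0.05 (adjusted p = 0.244, 95% interval -0.02 to 0.16). On total counts in place of TMM, which moved the median of all genes by -0.172, the number passing as higher was 3, and the share of higher calls among all called genes was 31.4% in place of 50.9%. The 3 that remained were Slc2a1, Pfkfb3 and Hif1a.

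In adult microglia LPS raised 4 of the 10 genes, Slc2a1, Pgk1, Pkm and Ldha, and lowered none, where 14.4% of all genes passed as higher and 27.4% in either direction. Of all genes 24.1% had all LPS samples above all PBS samples, as had Pgk1, Eno1, Pkm and Ldha. The median log2 fold change of the 10 genes was 0.35, against 0.01 over all genes. Pkm stood at 335, 326, 335 and 299 CPM with PBS and at 741, 608, 610 and 723 CPM with LPS. The groups were far apart, and the log2 fold change was 1.05 ± 0.08 (2.07-fold, adjusted p = 1.72e-06). Ldha stood at 218, 240, 244 and 231 CPM with PBS and at 443, 387, 446 and 420 CPM with LPS. Its log2 fold change was 0.86 ± 0.07 (1.82-fold, adjusted p = 1.93e-06), with no overlap.

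Pgk1 stood at 49.0, 49.6, 51.6 and 50.1 CPM with PBS and at 84.2, 73.1, 81.6 and 101 CPM with LPS, also apart, at 0.76 ± 0.09 (1.70-fold, adjusted p = 3.67e-05). A processed copy, Pgk1-rs7, took 4.31% to 21.9% of the joint Pgk1 counts per adult library, so the split between them is uncertain, and the sum of both gave 0.69. Slc2a1 stood at 77.4, 75.1, 67.2 and 62.8 CPM with PBS and at 126, 77.0, 125 and 119 CPM with LPS. LPS replicate 2 lay within the PBS range, and the other LPS libraries lay above it. The log2 fold change was 0.66 ± 0.15 (1.58-fold, adjusted p = 0.00350), and 0.80 without replicate 2.

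The remaining genes did not pass. Eno1 stood at 474, 489, 538 and 503 CPM with PBS and at 642, 581, 581 and 614 CPM with LPS. The groups were apart but the difference was small, at 0.27 ± 0.07 (adjusted p = 0.00495). Hk2 had 198 to 220 CPM with PBS and 206 to 314 CPM with LPS, at 0.32 ± 0.11 (adjusted p = 0.0284), and its adjusted p was 0.05 or more in 5 of the 8 fits that left out a library. Hif1a had 181 to 217 CPM with PBS and 146 to 207 CPM with LPS, at -0.20 ± 0.10 (adjusted p = 0.122). Pfkfb3 (-0.21, adjusted p = 0.149) and Aldoa (-0.10, adjusted p = 0.288) also had values below 0. Pfkp was near the limit of detection, at 0.861 to 1.73 CPM with PBS and 1.11 to 1.98 CPM with LPS.

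Marker sums were lower with LPS in the adult comparison for several cell types. Summed microglia markers were 52707 to 59080 CPM with PBS and 38118 to 42813 CPM with LPS, and 2 of the 8 passed as lower and 1 as higher. Summed monocyte and neutrophil markers were 35.4 to 69.8 CPM with PBS and 5.59 to 13 CPM with LPS, with none of the 7 at 0 throughout. Summed endothelial markers were 40.7 to 49.5 CPM with PBS and 15.0 to 17.4 CPM with LPS, with Cldn5, Tek and Abcb1a at 0 in both groups. That sum was nearly all Pecam1 (mean 32.6 and 10.9 CPM) and Kdr (11.2 and 4.75 CPM). No other endothelial marker had a mean over 0.542 CPM, and Cdh5 and Flt1 had higher means with LPS. Astrocyte markers summed to 254 to 278 CPM and 144 to 181 CPM, and oligodendrocyte markers to 177 to 200.1 CPM and 134 to 155 CPM. None of these 5 sums overlapped between the groups. Red blood cell markers summed to 6.76 to 226 CPM and 4.21 to 24.2 CPM, with overlap, and 2 of the 4 tested passed as lower. Their part in the results was not tested.

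In brain tissue edgeR passed 0 of the 9 tested genes after LPS (3.18% of all genes passed in either direction, 2.63% as higher), and DESeq2 passed 0. An unadjusted p under 0.05 was found for 6 of the 9, again without the share of all genes. The median log2 fold change of the 9 genes was -0.0053, against 0.0028 over all genes. Eno1 stood at 728, 734, 710 and 748 CPM in untreated mice and at 615, 606, 584 and 634 CPM after LPS. All LPS libraries were below all untreated ones, at -0.26 ± 0.03 (1.20-fold lower, adjusted p = 0.000134). Ldha stood at 219, 236, 221 and 222 CPM and at 208, 201, 176 and 181 CPM, likewise without overlap, at -0.23 ± 0.05 (adjusted p = 0.0108).

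Hk2, at 4.71, 4.27, 5.89 and 4.90 CPM in untreated mice and 7.26, 6.82, 7.36 and 7.51 CPM after LPS, was low in tissue. Its groups did not overlap, and the log2 fold change was 0.55 ± 0.14 (1.47-fold, adjusted p = 0.0217). Slc2a1 stood at 86.8, 96.8, 88.7 and 92.8 CPM and at 93.5, 106, 124 and 114 CPM, with 1 LPS library inside the untreated range, at 0.26 ± 0.07 (adjusted p = 0.0427). On leaving out a library, the adjusted p was 0.05 or more in 4 of the 8 fits for Hk2, in 6 of the 8 for Slc2a1 and in 1 of the 8 for Ldha. Summed endothelial markers were 279 to 296 CPM in untreated brain and 280 to 369 CPM after LPS, and 2 of the 9 markers passed as higher. Summed microglia markers were 286 to 324 CPM and 252 to 420 CPM, and 1 of the 8 passed as lower. Oligodendrocyte markers summed to 5213 to 5606 CPM and 3764 to 4424 CPM, and 2 of the 5 passed as lower. Astrocyte markers summed to 3839 to 4164 CPM and 4084 to 4397 CPM, and 2 of the 6 passed as higher. Of the 2 monocyte and neutrophil markers tested, 1 passed as higher. The part of these cell types in the tissue values was not tested.

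Aldoa, Pgk1, Pkm, Pfkp and Hif1a had log2 fold changes between -0.11 and 0.027 in brain tissue, and none passed. Of all genes 7.81% were without overlap and lower, as were Aldoa, Eno1 and Ldha, and 9.09% without overlap and higher, as was Hk2. Pgk1-rs7 took 14.5% to 32.6% of the joint Pgk1 counts in brain libraries. The zeros of Pfkfb3 carry no information on its expression: all 417 genes listed between positions 3065573 and 22940266 of chromosome 2 were at 0 in every brain library, 46 of them with over 1000 counts in total in the adult libraries.

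The LPS effects in adult microglia and in brain tissue were then compared with an interaction term. They differed for 3 of the 9 genes with a value in both, all larger in microglia (9.10% of all genes passed in that direction and 19.7% in either). The shares of all genes were not limited to genes with a value in both. The difference was 1.08 ± 0.09 for Ldha (adjusted p = 7.67e-08), 1.05 ± 0.10 for Pkm (adjusted p = 1.79e-07) and 0.73 ± 0.11 for Pgk1 (adjusted p = 5.08e-05) on the log2 scale. For Eno1 it was 0.52 ± 0.08 (adjusted p = 8.30e-05), under the fold limit. For Slc2a1 it was 0.39 ± 0.17 (adjusted p = 0.0996, 95% interval 0.03 to 0.75), so a difference was not shown. The controls were PBS for microglia and no injection for tissue, and the library kits differed, which cannot be told apart from the effect of sorting.

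Levels can be compared between genes only per length, here as CPM per kilobase of all annotated exons, which understates genes with long alternative exons such as Pfkp. In medium the order was Aldoa (896 ± 84.2, SD, n = 9), Ldha (633 ± 42.8), Pkm (519 ± 36.0), Eno1 (245 ± 14.1), Slc2a1 (101 ± 13.6), Pgk1 (79.5 ± 8.74), Hif1a (60.9 ± 7.0), Hk2 (24.2 ± 2.56), Pfkfb3 (16.5 ± 3.07) and Pfkp (8.57 ± 1.81). Ldha and Pkm, Slc2a1 and Pgk1, and Pgk1 and Hif1a were neighbours whose ranges overlapped. With TNF the same order held, with Ldha at 1250 ± 147 (n = 11) overlapping Aldoa at 1351 ± 74.4. Pgk1 and Hif1a overlapped there as well, and so did Pfkfb3 and Pfkp. With GM-CSF Pfkfb3 (8.48 ± 1.85, n = 9) and Pfkp (8.93 ± 1.21) overlapped, as did Aldoa and Ldha.

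In adult microglia the levels and their order were different ones. With PBS, Aldoa was at 115 ± 5.04 CPM per kilobase (SD, n = 4), Eno1 at 93.1 ± 5.13, Ldha at 70.4 ± 3.49 and Pkm at 64.7 ± 3.39, whereas Hk2 (34.7 ± 1.75) was above Slc2a1 (20.1 ± 1.93). With LPS, Pkm (134 ± 14.2) and Ldha (128 ± 8.25) stood first, overlapping Eno1 (112 ± 5.52) and Aldoa (107 ± 10.0) in turn. In untreated brain tissue Aldoa (519 ± 13.5) and Pkm (230 ± 5.44) led, and Hk2 was last of the detected genes at 0.828 ± 0.114. The tables were made separately, so these levels are set side by side with no test. Pfkp showed the widest gap, with 115 ± 24.3 CPM in slice medium, 1.23 ± 0.426 CPM in adult PBS and 309 ± 7.98 CPM in untreated brain.

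The isozymes of the same steps changed in composition. Ldhb, the lactate dehydrogenase subunit that favours pyruvate formation, fell with TNF (-1.3 ± 0.09, adjusted p = 9.01e-14), with GM-CSF (-0.65 ± 0.10, adjusted p = 4.03e-06) and with LPS in adult microglia (-0.67 ± 0.08, adjusted p = 3.26e-05). In brain tissue its value was -0.0061 ± 0.03 (adjusted p = 0.942). The share of Ldha in length-scaled Ldha and Ldhb counts was 76.9% ± 2.66 (SD, n = 9) in medium. It was 94.2% ± 0.652 (n = 11) under TNF and 86.6% ± 1.27 (n = 9) under GM-CSF. In adult microglia it was 18.9% ± 0.793 with PBS and 40.4% ± 3.86 with LPS (n = 4 each). In brain tissue it was 19.8% ± 0.461 and 17.5% ± 1.11.

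Slc2a5, which encodes the fructose transporter GLUT5 and is a microglial gene in brain, moved against Slc2a1. It ranged from 85.9 to 284 CPM in medium, 0.285 to 3.97 CPM with TNF and 19.1 to 75 CPM with GM-CSF, and the groups did not overlap. The log2 fold change was -6.04 ± 0.28 with TNF (adjusted p = 7.52e-18) and -2.15 ± 0.24 with GM-CSF (adjusted p = 1.80e-08). In adult microglia it stood at 1115, 1071, 1022 and 1033 CPM with PBS and at 199, 446, 228 and 193 CPM with LPS, at -1.99 ± 0.28 (adjusted p = 0.000656). The highest of these LPS values was that of replicate 2, the library with the lowest Slc2a1. In brain tissue Slc2a5 was at 3.81 to 5.24 CPM in untreated mice and 1.09 to 2.95 CPM after LPS, at -0.92 ± 0.24 (adjusted p = 0.0248). The share of Slc2a1 among the length-scaled counts of Slc2a1, Slc2a3, Slc2a5 and Slc2a6 was 48.1% ± 5.86 in medium, 72.8% ± 2.97 with TNF and 64.9% ± 2.73 with GM-CSF, and in adult microglia 6.01% ± 0.358 with PBS and 25.0% ± 7.73 with LPS.

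**Figure D3:**
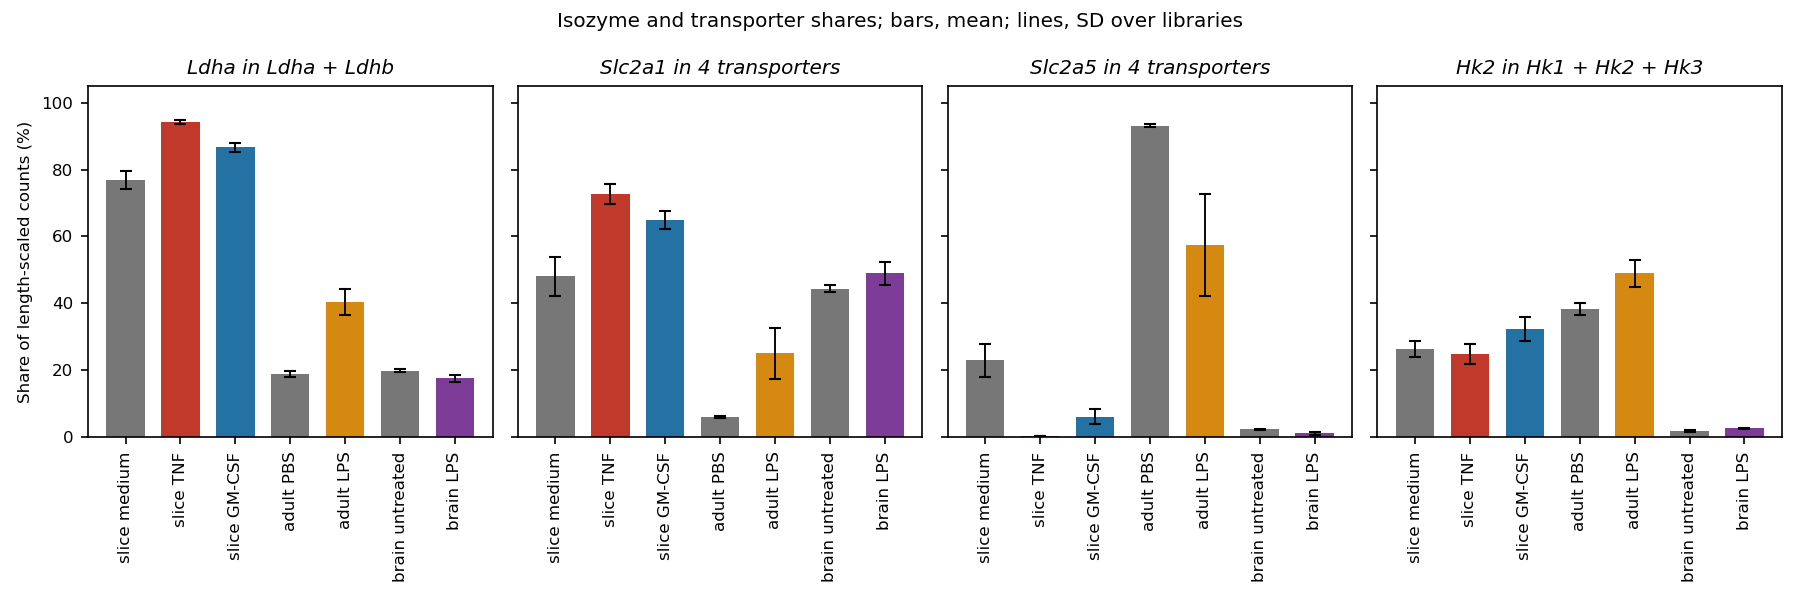
Share in percent (vertical axis, from 0) of length-scaled counts held by Ldha within both lactate dehydrogenase genes, by Slc2a1 and by Slc2a5 within 4 transporter genes, and by Hk2 within 3 hexokinase genes, in the 7 groups (horizontal axis); bars are means and lines the SD over libraries. The Ldha share is 94.2% with TNF and 76.9% in medium, and 40.4% with adult LPS and 18.9% with PBS.

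Other transporters and isozymes followed the treatments unequally. Slc2a3, the transporter GLUT3, rose with TNF (0.73 ± 0.26, adjusted p = 0.0287) and with LPS in adult microglia (1.44 ± 0.22, adjusted p = 0.000347). Slc2a6 rose with adult LPS (3.71 ± 0.42, adjusted p = 0.000232), from 3.51 to 6.89 CPM with PBS to 27.7 to 90.4 CPM. Slc2a8 fell with TNF (-0.96) and GM-CSF (-0.70). Hk3 had log2 fold changes of 0.49 with TNF, -0.37 with GM-CSF and -0.28 with adult LPS, each with an adjusted p under 0.05 and under the fold limit. Hk1 fell with adult LPS (-0.77 ± 0.08, adjusted p = 1.65e-05) and had 0.38 with TNF. The share of Hk2 among the 3 hexokinase genes was 26.3% ± 2.46 in medium, 24.7% ± 3.01 with TNF and 32.4% ± 3.56 with GM-CSF. In adult microglia it was 38.3% ± 1.67 with PBS and 49.0% ± 4.06 with LPS. Pfkl, the liver-type phosphofructokinase subunit, rose with TNF (0.77 ± 0.09, adjusted p = 3.10e-09) and held 81.6% ± 2.82 of the length-scaled phosphofructokinase counts in medium, against 12.7% ± 2.26 for Pfkp, and Pfkm fell (-0.65 ± 0.20, adjusted p = 0.0100). In adult microglia Pfkl had 0.07 (adjusted p = 0.597) and Eno3 fell (-0.87 ± 0.12, adjusted p = 8.48e-05). Aldoc and Eno2 passed in none of the 4 treatments.

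Among the 17 other glycolytic enzymes and isozymes, 13 were tested in slices, and 4 rose and 2 fell with TNF (median log2 fold change 0.38). Beside Pfkl these were Tpi1 (triosephosphate isomerase, 0.79 ± 0.06, adjusted p = 2.19e-13), Gpi1 (glucose phosphate isomerase, 0.70) and Pgam1 (phosphoglycerate mutase, 0.60). With GM-CSF none of the 13 rose and Ldhb fell. In adult microglia 1 of 12 rose, Gapdh (0.92 ± 0.07, adjusted p = 2.09e-06), and 3 fell. In brain tissue 1 of 16 passed, the hexokinase family gene Hkdc1, which fell (-1.01 ± 0.14, adjusted p = 0.000282). The shares of all genes that passed as higher were 9.10% with TNF, 4.84% with GM-CSF, 14.4% with adult LPS and 2.63% with brain LPS. In either direction the shares were 20.8%, 10.8%, 27.4% and 3.18%.

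Of the enzymes that set fructose 2,6-bisphosphate, none of 4 passed with TNF (2 had an unadjusted p under 0.05 in edgeR), and Tigar, a fructose bisphosphatase, rose with GM-CSF (0.89 ± 0.15, adjusted p = 1.33e-05) and with adult LPS (1.61 ± 0.24, adjusted p = 0.000140). Of the 11 genes of pyruvate and lactate handling, 2 rose and 3 fell with TNF, where 9.10% of all genes passed as higher and 20.8% in either direction. Slc16a3, the lactate exporter MCT4, rose by 1.08 ± 0.10 (adjusted p = 1.33e-11), and Pdk4 (-1.88), Slc16a7 (-1.42) and Pdk2 (-1.06) fell. None of the 11 passed with GM-CSF in edgeR, where 7 had an unadjusted p under 0.05. In adult microglia 2 of 10 rose, Slc16a1 (the lactate transporter MCT1, 0.78) and Pdk3 (0.62), and 3 fell, led by Pdk1 (-0.81). In that comparison 14.4% of all genes passed as higher and 27.4% in either direction. Of 7 genes of the pentose phosphate pathway, which branches off at the hexokinase product, Pgd (0.73) and G6pdx (0.60) rose with TNF, and Pgd (0.60) rose with adult LPS. In brain tissue none of these 3 lists had a gene that passed in edgeR, and 1 of 2, 2 of 11 and 2 of 7 genes had an unadjusted p under 0.05. With GM-CSF none of the 7 pentose phosphate genes passed, and 3 had such a p.

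Hypoxia-response genes outside glycolysis were measured beside Hif1a. With TNF 4 of the 14 rose: Adm (adrenomedullin, 1.12 ± 0.13, adjusted p = 7.79e-09), Ero1l (an oxidase of the endoplasmic reticulum, 1.03 ± 0.10), Vegfa (vascular endothelial growth factor A, 0.86 ± 0.16) and Higd1a (0.85 ± 0.08). The other 10 did not pass, and the median of the list was 0.12, against -0.03 over all genes tested. With TNF 9.10% of all genes passed as higher and 20.8% in either direction. With GM-CSF none of the 14 passed in edgeR (8 had an unadjusted p under 0.05). The median of the list was -0.31, against -0.04 over all genes tested. Of the 14 values 13 were below 0, a count given without the share of all genes. In adult microglia 2 of the 11 tested rose and 4 fell, among them Ankrd37 (-1.39), Bnip3 (-1.0) and Mxi1 (-0.77). In that comparison 14.4% of all genes passed as higher and 27.4% in either direction. Ero1l rose there as well, by 0.81 ± 0.12 (adjusted p = 0.000163), and so did Car9 (0.86). Of the 7 HIF subunits and oxygen sensors, Egln3, a prolyl hydroxylase, rose with TNF (0.64 ± 0.10, adjusted p = 1.04e-06) and Epas1, the HIF-2 alpha subunit, fell (-1.66 ± 0.64, adjusted p = 0.0371). None of the 7 passed with GM-CSF (3 had an unadjusted p under 0.05), none of the 5 tested passed with LPS in adult microglia (2 had such a p) and none of 7 in brain tissue (4 had such a p). None of the 13 hypoxia-response genes tested passed in brain tissue, where 5 had such a p. Egln3 was at 195 ± 36.6 CPM in slice medium and at 0.822 ± 0.265 CPM in adult PBS, both side by side with no test. Adm was at 67.6 ± 15.9 CPM in slice medium and had 1 count in all over the 4 adult PBS libraries.

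Over all 65 genes of the 7 lists, 60 were tested in slices, and 14 rose and 8 fell with TNF, at a median of 0.10. Of all 11313 genes tested, 1030 rose and 1323 fell. With GM-CSF 1 of the 60 rose and 3 fell, beside 548 and 674 of all genes. TNF against GM-CSF gave 14 higher and 4 lower, beside 933 and 900 of all genes, and 7 of the 14 were hypoxia-response genes. With LPS 9 of 53 rose and 11 fell in adult microglia, beside 1872 and 1691 of all 12987 genes tested. In brain tissue 0 of 61 rose and 2 fell, beside 396 and 83 of all 15083.

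**Figure D4:**
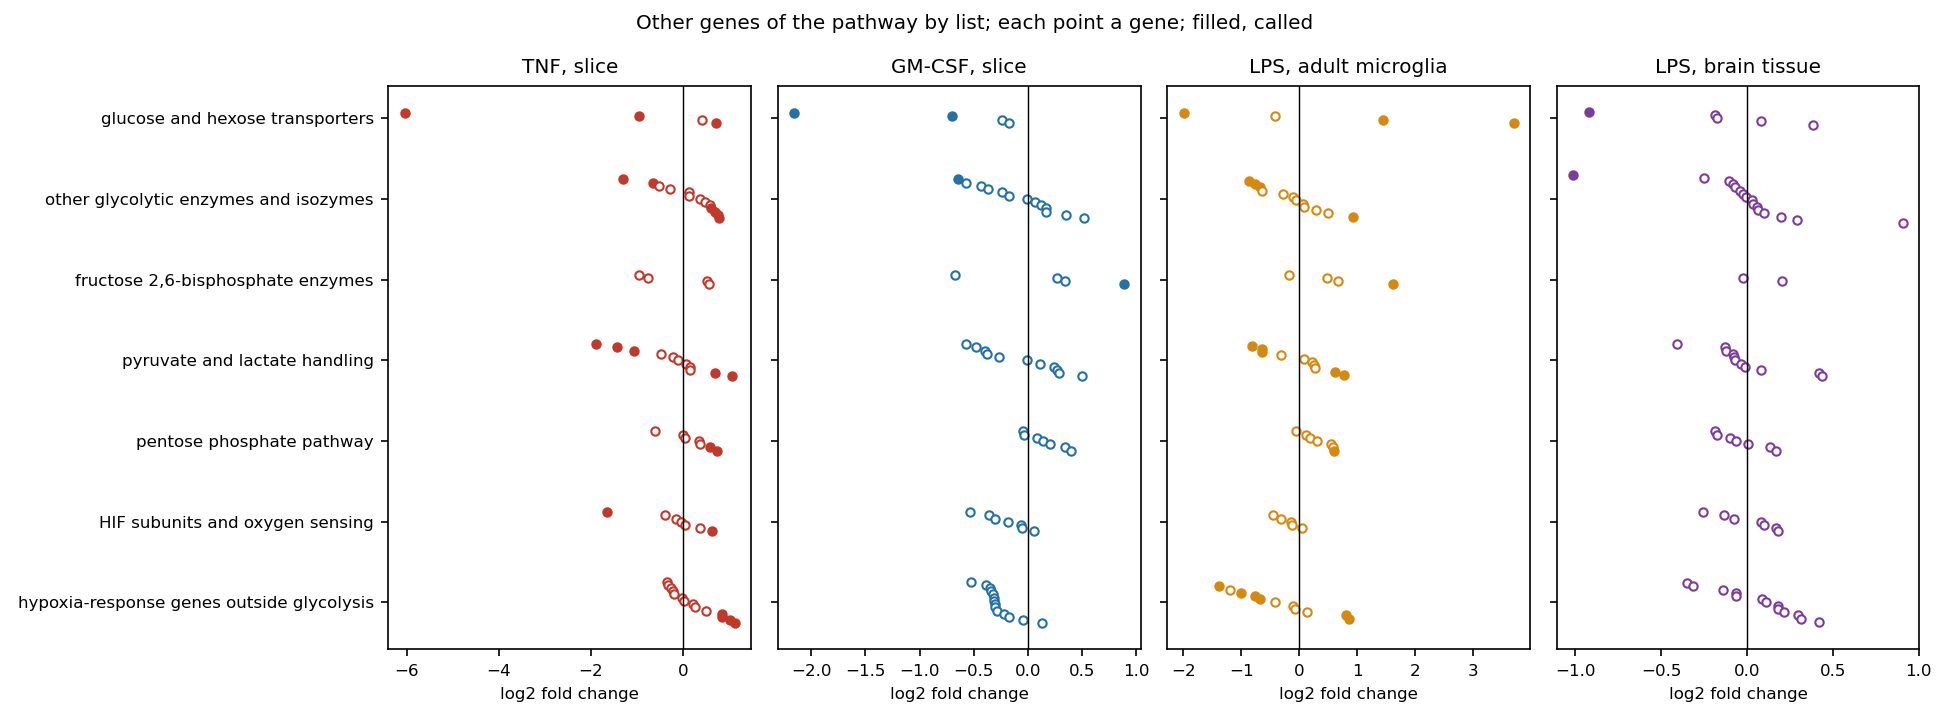
Log2 fold change (horizontal axes, which differ in range between panels) of the other pathway genes tested, by list (vertical axis), in the 4 treatments; each point is a gene and filled points passed the test. TNF has 14 filled points above 0 and 8 below, and GM-CSF 1 and 3.

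Across the 29 slice libraries, the genes most like each of the 10 in log2 CPM were found as a description, since all libraries share the 3 treatments. Slc2a1 was most like Slc16a3 (Pearson r = 0.982), and Ldha was also most like Slc16a3 (r = 0.962) and next like Gapdh (r = 0.957). Pkm was most like Tpi1 (r = 0.973), and Hk2 like Gys1 (glycogen synthase, r = 0.806) and Pfkl (r = 0.804). Aldoa was most like Ifi211 (r = 0.974) and H2-Q7 (r = 0.972), Eno1 like Ccl2 (r = 0.961), Pgk1 like Gch1 (r = 0.962) and Hif1a like H2-M2 (r = 0.956). Pfkfb3 was most like Myo1f (r = 0.910) and Pfkp like Igsf6 (r = 0.856). After the group means were taken out, 37 of the 45 pairs of the 10 genes had r above 0, with a median of 0.293. The highest were Slc2a1 with Pkm (r = 0.656) and with Ldha (r = 0.653). Libraries share their depth and scaling across genes, so these values describe the libraries and are not evidence of shared control.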

How the data were processed

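RNA was sequenced from sorted microglia (SMART-Seq v4 with Nextera XT) and from whole brain tissue (TruSeq mRNA). Per the labels the genome build was mm10. For slice microglia the submitters' processing notes name STAR 2.7.0a and featureCounts from Subread 1.6.4, and the deposited values are whole counts per gene. For adult microglia and brain tissue the authors deposited expected counts (estimated, not whole), and the counting tool is not given in the sources used here. These were rounded to whole numbers. Genes were named by GENCODE M21, and a second identifier of Aldoa was not used. Among the brain values 92 entries that name no gene held 0 counts.

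Counts were tested with edgeR 4.0.16 in R 4.3.3 (TMM, filterByExpr with a minimum count of 10 and a total of 15, robust quasi-likelihood fit), with one fit for the 29 slice libraries, one each for adult microglia and brain tissue, and one for both with an interaction term. DESeq2 1.42.0, other scaling and filters, groups alone, title codes, replicate blocks and left-out libraries were alternatives. The fit was tested on simulated data with 200 changed genes. Counts at an unadjusted p, or at adjusted p alone, carry no share of all genes and are not a measure of enrichment. No pair of replicates held identical values, and counts of replicates differed by more than sampling noise (chi-square per degree of freedom at least 1.80). Per the study's legends, the adult LPS reference samples came from separate mice, and each slice sample pooled a few slices that had been treated separately, over several independent experiments. The sources used here do not tie samples to those experiments, so experiment could not be fitted as a term. The named genes are the 10 members, any tested isozyme of theirs, up to 3 genes with the largest change among those passing per list and comparison, and the most alike genes over the slice libraries. The 10 genes and the lists were chosen with earlier results of these data known. Promoters are from RefSeq, where all 10 genes matched.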

Additional observations from a re-analysis of the deposited data

Results flagged for a closer look

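In 58 pairs of a gene and a group of 4 to 9 samples, the lowest or highest sample stood apart from the others by Dixon's criterion in 3, and chance alone flags about 1 in 20. Slc2a1 in adult LPS replicate 2 was at 77.0 CPM, with the other 3 libraries at 119 to 126 CPM. Pgk1 in medium replicate 8 was at 137 CPM, with the nearest sample at 169 CPM and the highest at 203 CPM. Ldha in untreated brain replicate 2 was at 236 CPM, with the nearest at 222 CPM and the lowest at 219 CPM.

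The effect of LPS was larger in adult microglia than in brain tissue by the interaction test for Ldha (1.08 on the log2 scale), Pkm (1.05) and Pgk1 (0.73).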

How the results depend on the processing

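Of the numbers of genes passing, 167 alternatives stayed within 1.5 times the main number and 9 did not. With no fold limit, GM-CSF gave 2 higher and 2 lower, and brain LPS 2 higher and 2 lower. The share of all genes at that looser rule is not given. On total counts GM-CSF gave 1 higher (Eno1) and TNF against GM-CSF 3 higher. GM-CSF also gave 1 higher with no low-count filter and in codes 1A and 1B alone. On leaving out a library, the brain number of higher genes ranged from 0 to 1, the 1 being Hk2 without untreated replicate 3. On total counts the share of higher calls among all genes called with GM-CSF was 64.0% in place of 44.8%, as the median of all genes moved by 0.105. Aldoa with TNF was under the fold limit on total counts (0.53), with the stricter filter (0.58) and with the replicate block (0.58), which put Pkm over it (0.59), and Eno1 was under it on total counts (0.57).

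Of the log2 fold changes, 16 alternatives changed sign, each for a value that did not pass. These were Pkm with GM-CSF on total counts (0.079) and in codes 2A and 2B (0.0012), Eno1 for TNF against GM-CSF on total counts (-0.10, and 0.07 relative to the median shift), Pfkfb3 with TNF in codes 1A and 1B (-0.0087), brain Pkm (0.012) and Hif1a (0.012) on total counts, and brain Pgk1 summed with Pgk1-rs7 (-0.11). On leaving out a library, brain Pgk1 ranged from -0.020 to 0.074, Pkm from -0.021 to 0.0058, Hif1a from -0.036 to 0.035, and the Aldoa interaction from -0.086 to 0.016. Causes were not tested unless the alternative itself shows them. On total counts 3 levels moved by more than their SD, Pgk1 and Eno1 with TNF and Eno1 with GM-CSF, and 67 did not.

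In no comparison did every same-numbered pair have r over 0.1, so the numbers were not taken as pairs. For TNF against medium all 9 pairs had r above 0 (0.041 to 0.18), 4 of them over 0.1, and 4 of the 9 samples correlated best with their own number, a hint from the data and not the design. These were replicates 1, 2, 4 and 9, whose TNF and medium samples carry the same title code, as do those of replicate 3. Replicates 5 to 8 carry different codes in TNF and medium, and had r of 0.041 to 0.080. Whether the number or the code lies behind the hint was not tested. Over the other comparisons r lay between -0.078 and 0.13. The replicate block left the number of higher genes at 6 for TNF, 0 for GM-CSF, 7 for TNF against GM-CSF, 4 for adult LPS, 0 for brain LPS and 3 for the interaction. In slices that block joined samples of different title codes at some numbers. Small groups limit the adult and brain comparisons, and Pfkp in adult microglia rests on 67 and 84 counts per group.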
